A study of Mus musculus with 6 samples.

Results

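Endothelial cells line the blood vessels of the liver, and 34 genes that mark them were followed in whole-liver RNA. The 34 genes were chosen by symbol as known markers of these cells, with earlier results of these data known. Each was found as 1 row among the 55450 genes of the deposited table. They divide into 21 genes of endothelium in general and 13 genes of the sinusoids, the capillaries between plates of hepatocytes. All 34 passed the filter on low counts and were among the 14539 genes tested.

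The tissue was the left liver lobe of 6 mice labelled strain C57BL/J, with 1 library per mouse. In the knockout group 3 mice labelled LKB1 fl/fl, in which both copies of the gene Stk11 carry sites for Cre, had been injected with an AAV8 virus carrying Cre recombinase, and 3 wild type (WT) mice had received the same virus. The virus was given at 6 weeks of age and the mice are labelled as 10 weeks old, and any effect of AAV8 Cre itself is present in both groups. AAV8 mainly reaches hepatocytes, and the promoter that drives Cre is not given in the sources used here.

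Sinusoidal endothelial cells differ from those of other vessels in having open pores and no continuous basement membrane. They take up waste molecules from blood through scavenger receptors such as the stabilins and the mannose receptor, and they send signals such as BMP2 and Wnt proteins to neighbouring hepatocytes. Vascular endothelial growth factor (VEGF) receptors and the angiopoietin receptor Tek maintain endothelium in all organs, and factors of the ETS family such as Erg drive many endothelial genes.

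Total counts were between 47659122 and 56147667 per library. Stk11, examined as a check of the labels, had 22.1, 14.4 and 11.4 CPM (each library's counts divided by its scaled total, in units of 1e+06 counts) in knockout 1 to 3, below the 64.2 to 69.7 CPM of the WT libraries, and its adjusted p-value was 0.0167. Xist had 42472 counts in knockout 1 and 29243 in WT 1, which held at most 6 counts in all from Uty, Kdm5d, Ddx3y and Eif2s3y, genes of the Y chromosome, whereas the other 4 libraries had at most 16 counts of Xist and at least 6146 of the Y-linked genes. The labels do not give the sex of the mice, and values are given below within each kind of library. The p-values below rest on the spread between the mice in each fit, which are all 6 unless stated. With the group as the only term, that spread includes the difference between the kinds of library.

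All 34 endothelial genes had a fitted log2 fold change below 0, from -0.21 for Plvap to -2.77 for Nrp1, with a median of -0.74. Over all tested genes the median was 0.01 and 49.0% had a value below 0. A log2 fold change of -1 or lower was found for 4 of them, Nrp1, Aqp1, Ramp2 and Clec4g. Another 23 lay between -1 and -0.5, and 7 lay above -0.5. In edgeR's quasi-likelihood test across all genes, with an adjusted p-value of 0.05 as threshold, 1 of the 34 was lower in knockout, Nrp1, and 0 were higher. Of all genes tested 3.37% passed this threshold and 1.22% passed it as lower. The unadjusted p-value was under 0.05 with a lower level for 26 of the 34, against 11.7% of all genes (26.3% in either direction), and 14 had an adjusted p-value under 0.1 as lower, against 5.15% of all genes. The 26 became 14 without knockout 2, 15 without knockout 3, 15 without WT 1 and 17 with scaling by library size, where 8.07%, 7.45%, 9.88% and 9.47% of all genes had such a value. For 27 of the 34 the highest knockout value was under the lowest WT value, against 15.5% of all genes. The shares of 11.7% and 15.5% also apply to the counts of smaller lists below in the fit of all 6 libraries. In whole tissue, fewer endothelial cells and less of these transcripts per cell cannot be told apart.

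**Figure D1:**
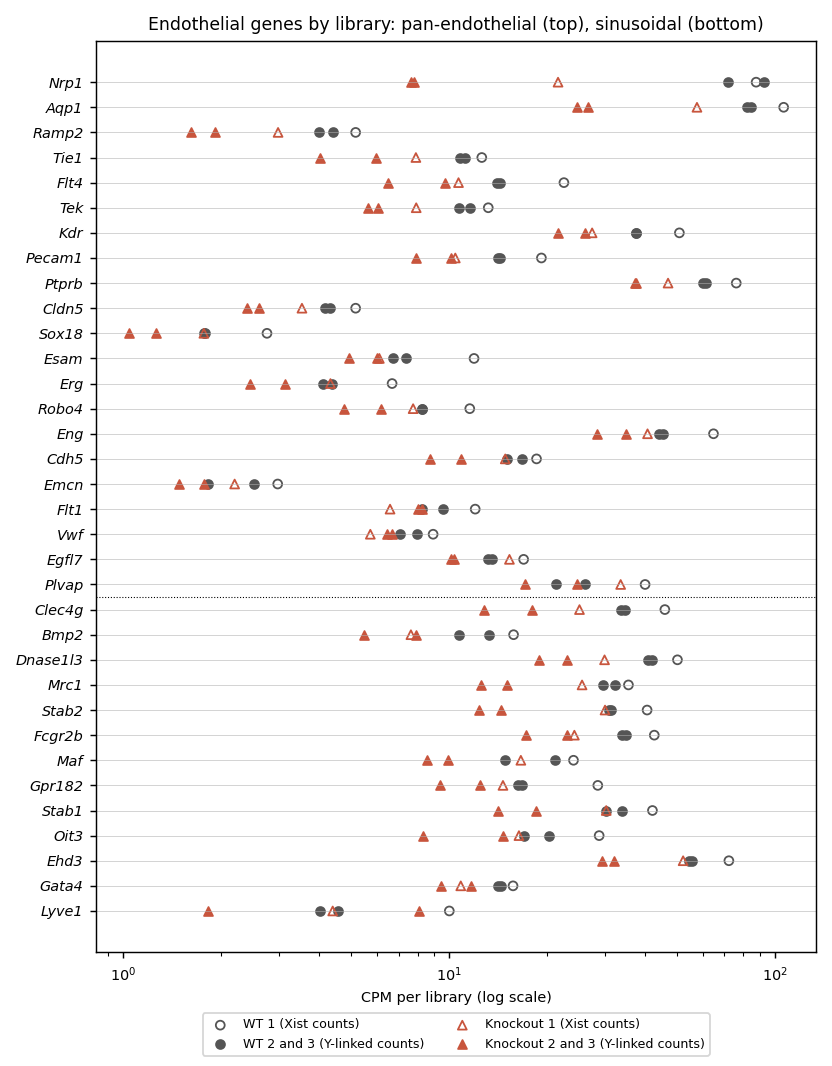
CPM of each of the 34 genes in the 6 libraries, on a log axis, with pan-endothelial genes above the dotted line and sinusoidal genes below it. Knockout libraries (triangles) lie left of all WT libraries (circles) for 27 genes, and WT 1 (open circle) is the highest WT library for 33.

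The number of calls rested on which libraries entered the fit. With the 4 libraries that had Y-linked counts alone (2 against 2), 24 of the 34 genes passed as lower and 0 as higher, where 16.1% of all genes passed as lower. When the Xist state of the library was added to the model of all 6 libraries, 21 passed as lower, against 4.99% of all genes, and these 21 were all among the 24. Leaving out knockout 1 also gave 24, against 14.2% of all genes, and leaving out any other single library, of either group, gave 0. DESeq2 called 15 of the 34 as lower, against 7.01% of all genes, and limma voom called 1, Nrp1, against 1.22%.

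Among the receptors for growth factors and their partners (7 genes), 1 passed the threshold as lower, the median log2 fold change was -0.86, and in all 7 the groups did not overlap. Nrp1 (neuropilin 1, ENSMUSG00000025810.9, GRCm38 chromosome 8, 128358604 to 128503363) is a co-receptor for VEGF and semaphorins that is also made outside endothelium, for example by stellate cells. Nrp1 had 21.6, 7.78 and 7.62 CPM in knockout 1 to 3 and 87.6, 71.9 and 92.6 CPM in WT 1 to 3. The highest knockout library was thus far below the lowest WT library. Its log2 fold change was -2.77 ± 0.437 (SE), its adjusted p-value was 0.0313 in edgeR, and the mean fell from 84.0 ± 10.8 to 12.3 ± 8.03 CPM (SD, n = 3 each). The adjusted p-value rose to between 0.0628 and 0.140 when knockout 2, knockout 3 or any of the WT libraries was left out, with log2 fold changes from -2.51 to -2.87.

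Tek, the angiopoietin receptor also called Tie2 (chromosome 4, 94739289 to 94874976), had 7.93, 6.03 and 5.65 CPM in knockout 1 to 3 and 13.2, 10.7 and 11.6 CPM in WT. Every knockout value was under the WT values, and the difference of -0.86 ± 0.179 on the log2 scale (SE) had an adjusted p-value of 0.0541. Ptprb, the phosphatase that acts on Tek and on vascular cadherin, had 47.0, 37.3 and 37.4 CPM against 76.1, 60.3 and 61.5 CPM, with a log2 difference of -0.70 and an adjusted p-value of 0.0590. Kdr, the main signalling receptor of VEGF in blood vessels, had 27.5, 26.1 and 21.5 CPM against 50.9, 37.5 and 37.6 CPM, with a log2 difference of -0.75 and an adjusted p-value of 0.0626. In all 3 genes WT 1 was the highest library of the 6. Tie1, the partner of Tek, and Flt4, the receptor for VEGF-C, had log2 differences of -0.95 and -0.92. Flt1, a VEGF receptor that acts largely as a decoy, had the smallest difference of the group, -0.39, with 6.59, 8.26 and 8.00 CPM in knockout and 12.0, 8.27 and 9.58 CPM in WT, and knockout 2 and WT 2 were almost equal.

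Among junction and surface proteins (10 genes) 0 passed the threshold in edgeR, 8 had an unadjusted p-value under 0.05 as lower, and the median was -0.60. Pecam1, an adhesion protein of endothelial junctions (chromosome 11, 106654217 to 106750628), had 10.4, 10.1 and 7.94 CPM in knockout and 19.2, 14.1 and 14.3 CPM in WT. The groups did not overlap, and the log2 difference of -0.74 ± 0.182 (SE) had an adjusted p-value of 0.0712. Aqp1, a water channel of endothelium that bile duct cells also make (chromosome 6, 55336432 to 55348555), had 57.7, 26.7 and 24.7 CPM against 106, 82.1 and 84.7 CPM. Knockout 1 stood well above the other knockout libraries, and the log2 difference was -1.32 ± 0.340 (adjusted p = 0.0759). Ramp2, which with Calcrl forms the receptor for adrenomedullin, had 2.98, 1.91 and 1.61 CPM against 5.17, 3.97 and 4.40 CPM, a log2 difference of -1.05. Calcrl itself had 9.07, 6.97 and 7.51 CPM against 16.6, 9.95 and 9.30 CPM, also without overlap.

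Cldn5, a tight junction protein, had a log2 difference of -0.67 with an adjusted p-value of 0.121. Eng, a co-receptor for BMP9 and BMP10, had 40.7, 34.8 and 28.4 CPM in knockout and 64.8, 45.2 and 44.0 CPM in WT, and so did not overlap. Cdh5, the cadherin of endothelial junctions, Robo4, a guidance receptor, and Esam, an adhesion protein, had log2 differences of -0.54, -0.59 and -0.61, with adjusted p-values from 0.163 to 0.177. Emcn, a surface sialomucin, and Plvap, which forms the diaphragms of endothelial pores, overlapped between groups. Plvap had 33.6, 24.6 and 17.1 CPM in knockout and 40.0, 21.3 and 26.1 CPM in WT, and the 95% interval of its log2 difference ran from -0.95 to 0.53.

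The 4 transcription factors had a median of -0.62, and 0 of them passed the threshold, with 2 at an unadjusted p-value under 0.05 in edgeR. Gata4, a factor required for sinusoidal identity that stellate cells also make (chromosome 14, 63198922 to 63271692), had 10.9, 11.7 and 9.47 CPM in knockout and 15.7, 14.1 and 14.5 CPM in WT. These groups did not overlap, and the log2 difference was -0.47 ± 0.133 (SE, adjusted p = 0.0908). Maf, a factor of sinusoidal endothelium and of macrophages, had a difference of -0.78, and its knockout 1 (16.6 CPM) lay above WT 3 (14.9 CPM). Erg, the ETS factor of endothelium, had 4.32, 3.13 and 2.44 CPM in knockout against 6.68, 4.36 and 4.11 CPM in WT. Sox18, a factor of vessel development and the gene with the lowest count, had 1.77, 1.26 and 1.04 CPM against 2.76, 1.77 and 1.77 CPM. For Erg and Sox18 knockout 1 was about level with WT 2 and WT 3, and the intervals of the log2 differences included 0.

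Of 5 secreted proteins 0 passed in edgeR and 3 had an unadjusted p-value under 0.05, with a median of -0.75. Dnase1l3, a nuclease that clears DNA in blood (chromosome 14, 7964533 to 7994573), had 30.0, 23.0 and 18.9 CPM in knockout and 50.2, 40.8 and 42.0 CPM in WT. Bmp2, a signal from sinusoidal cells that induces hepcidin in hepatocytes, had 7.63, 7.92 and 5.48 CPM against 15.8, 13.2 and 10.7 CPM. Neither gene overlapped between groups, and their log2 differences were -0.89 and -0.92 with adjusted p-values of 0.0566 and 0.0640. Oit3, a secreted sinusoidal protein, had 16.4, 14.7 and 8.30 CPM against 28.9, 20.2 and 17.0 CPM. Vwf, the clotting protein that is strong in larger vessels and weak in sinusoids, had 5.73, 6.43 and 6.69 CPM against 8.93, 7.98 and 7.06 CPM, a log2 difference of -0.35 with an interval from -0.72 to 0.02. Egfl7 had the smallest difference of these 5 genes, -0.28.

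Of the 8 sinusoidal receptors and endocytic genes 0 passed in edgeR, 7 had an unadjusted p-value under 0.05 as lower, and the median was -0.78. Clec4g, the lectin LSECtin (chromosome 8, 3707064 to 3720651), had 25.1, 17.9 and 12.8 CPM in knockout and 46.0, 33.7 and 34.8 CPM in WT. Its log2 difference of -1.03 ± 0.260 (SE) was the largest of the sinusoidal genes, with an adjusted p-value of 0.0741. Fcgr2b, a receptor for immune complexes (chromosome 1, 170958617 to 170976547), had 24.2, 23.0 and 17.2 CPM against 42.6, 35.0 and 33.8 CPM, and its adjusted p-value of 0.0565 was the lowest of the 13 sinusoidal genes. In both genes the groups were separate.

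The mannose receptor gene Mrc1, which Kupffer cells, the macrophages of the liver, also express, had 25.6, 15.1 and 12.6 CPM in knockout and 35.5, 32.2 and 29.7 CPM in WT. The stabilins, receptors for hyaluronan and oxidised lipoproteins, had knockout 1 close to WT. Stab2 had 30.1, 12.4 and 14.4 CPM against 40.5, 31.0 and 31.4 CPM, and Stab1 had 30.4, 18.4 and 14.1 CPM against 42.1, 30.4 and 34.0 CPM. Gpr182, a scavenger of chemokines, and Ehd3, a protein of endocytic recycling, had log2 differences of -0.76 and -0.68 without overlap. Lyve1, a hyaluronan receptor (chromosome 7, 110850607 to 110863239), did not follow the others, with 4.39, 8.08 and 1.83 CPM in knockout and 10.0, 4.01 and 4.55 CPM in WT. Knockout 2 lay above WT 2 and WT 3, and the 95% interval of its log2 difference of -0.38 ran from -1.73 to 0.98.

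**Figure D2:**
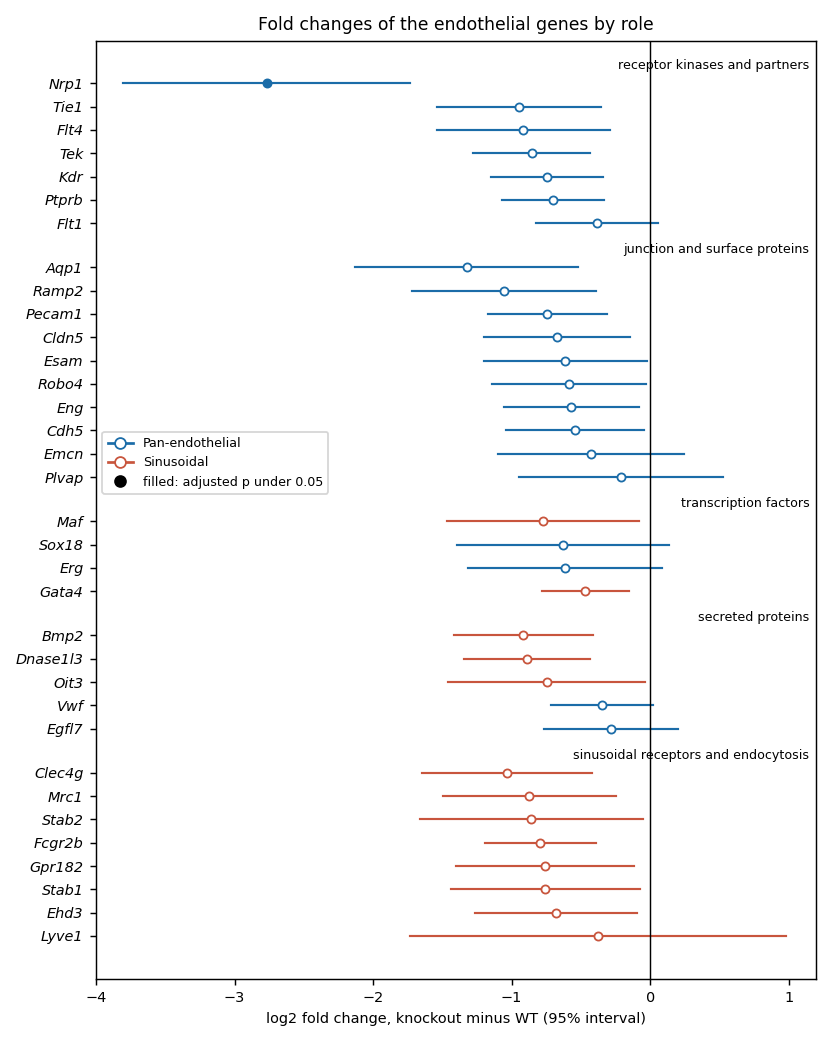
Log2 fold change of each gene, knockout minus WT, with its 95% interval, in 5 role groups, with pan-endothelial genes in blue and sinusoidal genes in red. Only Nrp1 is filled for an adjusted p-value under 0.05 in the fit of all 6 libraries, all points lie below 0, and the intervals of 8 genes include 0.

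Set side by side, the pan-endothelial genes had a median log2 fold change of -0.63 and the sinusoidal genes -0.78. Without overlap were 17 of 21 and 10 of 13, against 15.5% of all genes. In edgeR 14 of 21 and 12 of 13 had an unadjusted p-value under 0.05 as lower, against 11.7% of all genes. Summed over the list, pan-endothelial genes ranged from 213 to 336 CPM with knockout and from 444 to 596 CPM without it, and sinusoidal genes from 165 to 288 CPM and from 339 to 452 CPM. The ratio of the sinusoidal to the pan-endothelial sum was 0.857, 0.823 and 0.774 in knockout 1 to 3 and 0.759, 0.782 and 0.712 in WT 1 to 3. Sums weigh genes by their level. Aqp1 and Nrp1, the pan-endothelial genes with the highest WT means, fell from 91.1 to 36.3 and from 84.0 to 12.3 CPM. The ratio without them was not computed, and it does not show that sinusoidal genes fell less. In medians per gene relative to WT, sinusoidal genes were at -0.39, -0.93 and -1.24 and pan-endothelial genes at -0.47, -0.65 and -0.95 in knockout 1 to 3. By these medians the sinusoidal genes were the lower list in knockout 2 and 3 and the higher list in knockout 1. The ratios of the sums overlapped between the groups, and the difference between the lists was not tested.

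Libraries within a group differed in the same direction for most genes. Knockout 1 was the highest knockout library for 29 of the 34 genes and knockout 3 the lowest for 28, and WT 1 was the highest WT library for 33. In the model with both terms, all 34 genes had a higher fitted level in the libraries with Xist counts than in those with Y-linked counts, with a median log2 difference of 0.48. Of these differences 0 passed the threshold in edgeR and 24 had an unadjusted p-value under 0.05, where 0.0825% and 11.2% of all genes did so as higher. The spread between replicates was wider in knockout for 23 of the 34 genes, with a median coefficient of variation over all 34 of 24.5% against 17.4% in WT.

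Within the 4 libraries with Y-linked counts the log2 ratio of knockout to WT was below 0 for 33 of the 34 genes, with a median of -0.70, and in the pair with Xist counts it was below 0 for all 34, with a median of -0.68. The second set compares single libraries, so its ratios have no error. Lyve1 was the exception in the first set, at 0.21. The ratio was lower in the Y-linked libraries for 17 of the 34 genes and lower in the pair for the other 17. A test of the difference between these ratios, the interaction of group and Xist state in edgeR, passed the threshold for 0 of the 34, where 2.90% of all genes passed, and had an unadjusted p-value under 0.05 for 5, against 20.9% of all genes. Without the filter on low counts it passed for 3, against 6.78%. With 1 library per group in the pair, this test takes its spread between replicates from the Y-linked libraries alone and assumes that the pair varies alike. The 5 were Nrp1, Aqp1, Stab2 and Mrc1, which were lower in the Y-linked set, and Flt1, which was lower in the pair. The smallest adjusted p-value was 0.0576, for Nrp1, whose log2 ratios were -3.40 and -2.02.

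**Figure D3:**
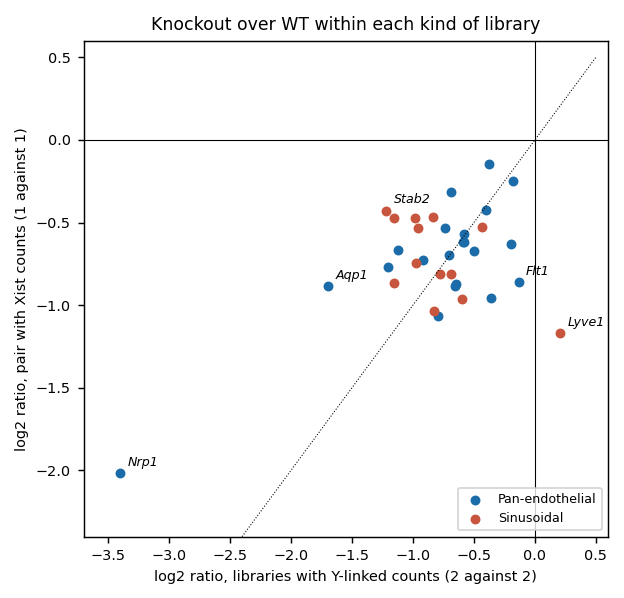
Log2 ratio of knockout to WT for each gene in the libraries with Y-linked counts (horizontal axis, 2 against 2) and in the pair with Xist counts (vertical axis, 1 against 1), with the dotted line marking equal ratios. All points but Lyve1 lie below 0 on both axes, and Nrp1 is the lowest on both.

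Levels were compared between genes as CPM per kilobase of merged exons, with the length taken from the annotation. In WT, Aqp1 was highest at 34.7 ± 5.09 CPM per kilobase (SD, n = 3), followed by Clec4g (15.5 ± 2.76), Plvap (14.6 ± 4.89) and Eng (12.7 ± 2.88), and the last 3 lay within each other's spread. Ehd3 (9.27 ± 1.51), Dnase1l3 (8.61 ± 0.999), Nrp1 (8.59 ± 1.10) and Oit3 (7.90 ± 2.21) came next and also lay within their spread. At the low end were Flt1 (0.738 ± 0.141), Vwf (0.497 ± 0.0583) and Emcn (0.451 ± 0.108), on the same scale. Nrp1 was the 7th of the 34 in WT and the 25th in knockout, at 1.26 ± 0.820 CPM per kilobase.

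Promoter sequences were taken from RefSeq (GRCm38.p6) to see what the genes share in the 250 bases before their start. The table held 23 windows for 19 of the 34 genes. Of the 17 genes with 1 window, 9 had a window that overlaps an annotated exon. Those windows are kept in the counts of matches, and the printed genes come from the other 8. The ETS-type hexamer AGGAAG, or CTTCCT on the other strand, occurred in 14 of these 23 windows, for 13 genes, and in 29.5% of all 32851 windows of that length. The GATA-type hexamer AGATAA, or TTATCT, occurred in 1 window, of Erg, and in 9.99% of all windows. Matches that overlap each other were counted separately, and a match is a description of letters, not of binding. Nrp1 (chr8:128358823-128359072, plus strand), Eng (chr2:32646345-32646594, plus), Flt1 (chr5:147726012-147726261, minus), Clec4g (chr8:3720652-3720901, minus) and Stab1 (chr14:31168642-31168891, minus) are printed 5′ to 3′ because they are the gene past the threshold and, in each subgroup, the other genes with most matches among windows free of annotated exons, with the ETS-type matches in capitals. The window of Nrp1 precedes the RefSeq start but lies inside the longer GENCODE gene.
Nrp1: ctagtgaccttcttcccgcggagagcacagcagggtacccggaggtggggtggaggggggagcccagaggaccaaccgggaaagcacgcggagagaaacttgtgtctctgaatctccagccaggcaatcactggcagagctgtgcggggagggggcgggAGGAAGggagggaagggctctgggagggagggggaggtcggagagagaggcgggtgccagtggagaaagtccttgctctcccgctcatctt
Eng: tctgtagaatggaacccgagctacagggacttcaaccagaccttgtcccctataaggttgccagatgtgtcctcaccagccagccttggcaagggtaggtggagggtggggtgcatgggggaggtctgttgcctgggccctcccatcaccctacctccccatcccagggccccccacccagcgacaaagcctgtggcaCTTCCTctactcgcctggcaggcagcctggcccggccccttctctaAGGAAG
Flt1: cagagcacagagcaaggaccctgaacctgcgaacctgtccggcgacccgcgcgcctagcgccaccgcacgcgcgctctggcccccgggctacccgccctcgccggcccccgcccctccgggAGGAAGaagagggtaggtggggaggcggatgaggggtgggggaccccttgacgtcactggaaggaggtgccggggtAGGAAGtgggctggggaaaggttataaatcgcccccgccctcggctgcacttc
Clec4g: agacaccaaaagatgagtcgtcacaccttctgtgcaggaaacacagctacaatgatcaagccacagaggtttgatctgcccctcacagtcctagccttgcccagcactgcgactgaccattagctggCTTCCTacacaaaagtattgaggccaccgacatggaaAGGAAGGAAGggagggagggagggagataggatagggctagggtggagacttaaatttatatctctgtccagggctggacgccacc
Stab1: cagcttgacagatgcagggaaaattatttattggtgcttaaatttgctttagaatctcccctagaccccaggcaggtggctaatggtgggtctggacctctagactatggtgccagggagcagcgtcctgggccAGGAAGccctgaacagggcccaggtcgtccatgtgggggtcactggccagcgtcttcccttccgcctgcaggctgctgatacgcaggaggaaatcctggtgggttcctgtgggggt
Clec4g had 3 matches, Eng and Flt1 had 2 each, and Nrp1 and Stab1 had 1 each.

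Other genes of endothelial signalling were taken from lists that were chosen with earlier results of these data known. Of the 6 tested VEGF and angiopoietin ligands 0 passed in edgeR, 0 had an unadjusted p-value under 0.05, and the median log2 fold change was -0.07. Vegfa, the ligand of Kdr, had 77.1, 63.5 and 77.9 CPM in knockout against 98.7, 77.0 and 76.4 CPM in WT, which overlapped. Of 20 tested genes of BMP and Notch signalling 0 passed in edgeR and 13 had a fitted value below 0. The Notch ligand Dll1 and the BMP target Id3 had an unadjusted p-value under 0.05, both as higher in knockout, but both overlapped between groups. Dll1 and Id3 were higher only among the Y-linked libraries, with log2 ratios of 1.556 and 1.355. Knockout 1 against WT 1, single libraries, gave -0.061 and -0.278. Of 41 other endothelial genes tested 0 passed in edgeR, 14 had an unadjusted p-value under 0.05 as lower and 2 as higher, Lmo2 and Ctsl, and the median was -0.54. Some of that list, such as Ctsl, Hhex, Ece1 and Epas1, are also made by other liver cells. Cd300lg was the closest to the threshold, with 8.75, 6.01 and 5.50 CPM against 14.4, 11.5 and 13.9 CPM (adjusted p = 0.0566). Among the 4 Y-linked libraries alone, 9 of the 41 passed as lower and 2 as higher, and of the BMP and Notch genes 2 and 4 of 19. Of all genes 16.1% passed as lower in that fit, and 51.7% of all its calls were higher.

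Most endothelial genes of both ends of the sinusoid had fitted values below 0. All 9 pericentral genes had a fitted value below 0, with a median of -0.50. In edgeR 3 of them had an unadjusted p-value under 0.05, against 11.7% of all genes as lower, and 0 passed the threshold. Wnt2, a Wnt ligand of central endothelium, had 1.80, 0.92 and 1.10 CPM in knockout and 2.76, 3.01 and 2.59 CPM in WT, without overlap, and an adjusted p-value of 0.0859. Of 7 periportal genes 6 had a value below 0, 2 at an unadjusted p-value under 0.05 and 0 past the threshold, and the median was -0.38. Cd36 was the exception, at 0.25. Median log2 ratios in the Y-linked libraries and in the Xist pair were -0.69 and -0.13 for periportal genes. They were -0.41 and -0.57 for pericentral genes. Ltbp4, which binds latent TGF-beta, had 29.2, 6.21 and 8.32 CPM against 50.1, 33.0 and 32.5 CPM. Of 4 tested adhesion molecules of activated endothelium 0 passed or had an unadjusted p-value under 0.05 in edgeR. Fitted values were above 0 for 2, Icam1 (0.62) and Vcam1 (0.50), and below 0 for the other 2, down to -0.31. All 5 lymphatic genes had a fitted value below 0, with a median of -0.735, but 0 passed or had an unadjusted p-value under 0.05 in edgeR. Their median log2 ratio was -0.89 in the Y-linked libraries and -0.07 in the Xist pair. Prox1 and Reln in that list are also made by hepatocytes and stellate cells.

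Markers of other liver cells were read from the same libraries. In all 14 stellate cell and fibroblast genes the fitted value was below 0 (median -0.54), with 0 past the threshold or at an unadjusted p-value under 0.05 in edgeR, and their summed level was from 193 to 373 CPM with knockout and from 284 to 601 CPM without it. Kupffer cell and macrophage genes had 10 of 14 below 0 (median -0.35), 0 past the threshold or at an unadjusted p-value under 0.05, and summed levels of 290 to 492 CPM and 393 to 462 CPM. Of 9 tested lymphocyte genes 8 were below 0 (median -0.83), 0 passed, 2 had an unadjusted p-value under 0.05, and the sums were 1.76 to 4.05 CPM and 4.30 to 5.35 CPM. Erythroid genes had a median of -1.35 over 5 tested genes, 0 past the threshold or at an unadjusted p-value under 0.05, and sums of 42.1 to 255.5 CPM and 188 to 432 CPM. Bile duct genes had a median of 0.09 over 8 genes and 2 tested platelet genes had -0.04, both with 0 past the threshold. Gp9 and Gp1ba of the platelet list had at most 3 counts in every library.

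Of 9 tested hepatocyte genes 0 passed in edgeR, 2 had an unadjusted p-value under 0.05 as lower and 1 as higher. A fitted value below 0 was found for 7 and above 0 for 2, the highest at 1.17. The median was -0.64, close to that of the pan-endothelial genes. Within each kind of library the 2 lists differed. The hepatocyte median log2 ratio was -0.96 in the Y-linked libraries and -0.02 in the pair with Xist counts. That of the pan-endothelial genes was -0.65 and -0.67. Alb, the albumin gene, had 50550, 10394 and 17534 CPM in knockout against 95626, 69977 and 57064 CPM in WT. The summed level of the hepatocyte genes ranged from 26490 to 75680 CPM with knockout and from 89200 to 124800 CPM without it. This sum includes Alb, which made up most of it in each WT library, so it is not a separate result. In the 4 libraries with Y-linked counts, 16.1% of all genes passed the threshold as lower. Those that passed were 4 of 9 for hepatocytes, 6 of 14 for macrophages (with 1 higher) and 4 of 14 for stellate cells. They were 5 of 5 for erythroid cells, 3 of 8 for lymphocytes, 1 of 8 for bile duct cells and 0 of 1 for platelets. Median log2 ratios in these libraries and in the Xist pair were -0.72 and 0.26 for macrophages and -2.93 and 0.18 for erythroid cells. They were -0.53 and -0.63 for stellate cells and -1.16 and -0.44 for lymphocytes. The part of these cell types in the endothelial values was not tested. With scaling by library size alone the median of the 34 genes was -0.69, and 1, Nrp1, passed.

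**Figure D4:**
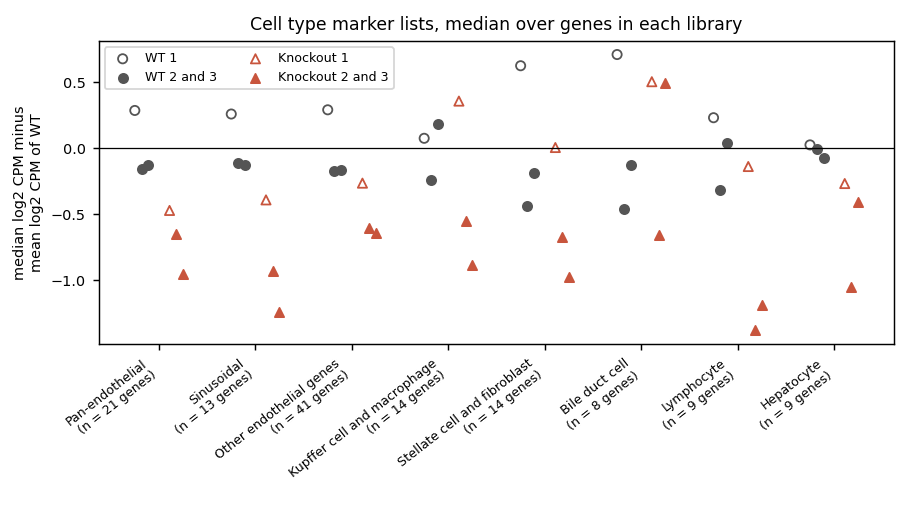
Median over the genes of each marker list of log2 CPM minus the WT mean of log2 CPM, in each of the 6 libraries. The 3 knockout libraries lie below the 3 WT libraries for both endothelial lists, the other endothelial genes and the hepatocyte list, while knockout and WT overlap for macrophage, stellate and bile duct lists.

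Counts of 5 of the 34 genes are uncertain because their exons overlap those of another gene with at least 10% of their mean count and the use of strand is not stated. These are Egfl7 (Agpat2), Eng (Fpgs), Gpr182 (Zbtb39) and Stab1 (Nt5dc2), with the partner on the opposite strand, and Ramp2 (Vps25), with the partner on the same strand.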

How the data were processed

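Paired reads (76 nt) came from poly(A) RNA of 6 mouse livers. Per gene, the authors deposited expected counts in a single table, which are estimated read numbers and need not be whole. The submitters' processing notes name bcl2fastq 2.17, cutadapt 1.18, STAR 2.7.0f, RSEM 1.3.1 and the build mm9, with no roles. All 55450 gene identifiers with versions were found in GENCODE M21 (GRCm38), an annotation of another build than mm9, so coordinates are those of GENCODE M21. Each column was matched to a sample by the sample description.

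Expected counts were rounded. Genes were kept with filterByExpr of edgeR 4.0.16, scaled by TMM and compared with edgeR's quasi-likelihood test in R 4.3.3, with the group as the only term, Benjamini-Hochberg adjustment over all 14539 genes and a threshold of 0.05. The SE is the size of the log2 fold change divided by the root of F, and 95% intervals use the test's degrees of freedom. Log2 ratios within subsets use an offset of 0.1 CPM, and log2 CPM a prior count of 2. Depth per library was 47659122 to 56147667 counts, and the lowest count of a member in a library was 49. Alternatives were scaling, filters, DESeq2 1.42.0, limma 3.58.1 voom, a replicate block, the Xist state and leaving out each library. The members and lists were chosen with earlier results of these data known. By rule all 34 members are named, up to 4 per role in full, with up to 3 genes past the threshold of any other list, of which there were 0. Other genes were named after their values were seen.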

Additional observations from a re-analysis of the deposited data

How the results depend on the processing

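Every alternative kept the median log2 fold change of the 34 endothelial genes below 0, between -0.58 and -0.88, and 505 of 510 values of single genes kept their direction over 15 alternatives. The exceptions were Lyve1, at 0.21 in the libraries with Y-linked counts, 0.01 without knockout 3 and 0.15 without WT 1, and Plvap, at 0.001 without knockout 3 and 0.083 without WT 1. Leaving out 1 library gave -0.979 to 0.152 for Lyve1 and -0.484 to 0.083 for Plvap. Against 1 endothelial gene and 490 genes in all past the threshold, there were 15 and 2290 with DESeq2, 4 and 771 without the filter, 21 and 1504 with the Xist state as a term, and 24 and 4847 in the Y-linked libraries. With the replicate block there were 1 and 105, and leaving out 1 library gave 0 to 24 and 6 to 4473. Of all genes called 63.9% were higher in knockout, and 74.4% with scaling by library size. Same-numbered libraries correlated at 0.18, 0.04 and 0.07 in their deviations from the group means, and differently numbered ones from -0.167 to 0.203. The value of 0.18 joins knockout 1 and WT 1, which both have Xist counts. The labels give no pairing, and these correlations cannot exclude one. The interaction with Xist state called 0 endothelial genes with TMM, library size or RLE scaling or the stricter filter and 3 without a filter, settings chosen after seeing the data. Causes were not tested. The Xist state and knockout 1 as a single library cannot be told apart in the counts of calls, since leaving out knockout 1 alone gave as many endothelial calls as the Y-linked libraries. The lowest endothelial count was 49, and counting error limits such genes most.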
